A study of Mus musculus with 6 samples.

Results

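Potassium channel subunit genes were examined in the left ventricle of pressure-loaded mouse hearts. The members are the protein-coding genes whose symbol is Kcn, then letters for the family, then a number, with symbols taken by Ensembl gene ID from GENCODE M21 on GRCm38. The rule found 92 of the 47729 genes in the deposited table, and it used no measured value. They were divided mainly by gene family, under the current that most of a family is known to carry or to modify, so single genes may differ. There were 8 transient outward, 15 inward rectifier, 36 delayed rectifier, 14 two-pore, 12 calcium- and sodium-activated, and 7 auxiliary subunits that serve several currents. Tissue was taken 9 days after transverse aortic constriction (TAC), a narrowing of the aorta that makes the left ventricle pump against a raised pressure. There were 3 libraries in a group called control and 3 in a group called Treg, which by the series title received regulatory T cells induced in culture and deprived of CD28, a costimulatory receptor. Both groups had the operation, and no unoperated mice were analysed here. The labels used here give neither what the control group received nor the strain, age or number of animals. A p-value here therefore measures spread among libraries that may not each come from a separate animal.

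Potassium channels let potassium leave the cell and so end the action potential and hold the resting potential. In mouse ventricle the early repolarization is carried mainly by the fast transient outward current, formed by Kv4 pore subunits with the cytosolic partner KChIP2, and by ultrarapid and slowly inactivating delayed rectifiers of the Kv1 and other Kv families. Strong inward rectifiers of the Kir2 family set the resting potential, ATP-sensitive channels couple it to metabolism, and acetylcholine-gated channels respond to vagal tone. Loss of several of these transcripts, KChIP2 and Kv4 among them, is a well-known feature of hypertrophied and failing hearts.

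Library totals lay between 28936997 and 29978805 estimated counts, and levels are given as CPM (counts relative to library size, with library sizes scaled by the trimmed mean of M values). Markers of ventricular muscle were high in every library, with a summed level of 51619.6, 45222 and 34362 CPM in control replicates 1, 2 and 3 and 45902, 56845 and 41851 in Treg replicates 1, 2 and 3, with the lowest value in control replicate 3. That library stood apart over all genes: its log2 CPM correlated at 0.936 to 0.957 with the others, which correlated at 0.967 to 0.991 among themselves. The T cell markers listed, of which 1 of 6 had enough counts to be tested, were also highest there, at 3.44, 1.69 and 16.1 CPM in control and 1.39, 1.44 and 1.66 in Treg, but Cd3e alone gave 15.7 of the CPM in that library and Cd3d was at 0.101. Treg replicate 3 held atrial transcripts, with Myl7, the atrial myosin light chain, at 1202 counts against 1 to 6 elsewhere. Myl4 and Sln were also highest there, at 2183 counts against 72 to 133 and 398 against 0 to 3. Other genes of the atrial list differed. Nppa was highest in control replicate 1, and Dkk3 stood at 43.76 CPM in Treg replicate 3 and 43.65 in control replicate 1. Fam189a2 was lower in every Treg library, at 1982, 2148 and 2672 counts in control and 1436, 1247 and 1463 in Treg. Bmp10 had 0 to 3 counts. The whole atrial list of 7 genes, most of it Nppa, which loaded ventricle is also known to express, summed to 1549.8, 905 and 332 CPM in control and 656, 711 and 1108 in Treg. Bulk tissue cannot tell fewer cells of a type from less RNA per cell.

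No potassium channel gene passed the threshold between the groups, yet for several the groups lay apart. Kcnj3 and Kcnj5, the partner subunits of the acetylcholine-gated channel, the silent subunit gene Kcnv2, the small-conductance calcium-activated channel genes Kcnn2 and Kcnn3, and Kcnip2, which encodes KChIP2, were higher in every Treg library than in any control library. Of the 92 genes, 55 had enough counts to be tested and 37 did not. By edgeR's quasi-likelihood test with Benjamini-Hochberg adjustment over 17343 genes, 0 of 55 had an adjusted p under 0.05, where the share over all genes was also 0%, and the smallest adjusted p of any gene was 0.087, which Kcnj3 shared. At an adjusted p under 0.1 there was 1 member, Kcnj3, against 0.323% of all genes, and it ranked 22nd of all genes by p.

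At an unadjusted p under 0.05 there were 12 members, 11 higher in the Treg group (20.0% of those tested, against 8.24% of all genes) and 1 lower (1.82%, against 8.31%). The groups did not overlap in 16 members, with 14 higher in every Treg library (25.5%, against 13.7% of all genes) and 2 lower (3.64%, against 11.7%). The 14 were Kcnj3, Kcnj5, Kcnj11, Kcnip2, Kcnd2, Kcna5, Kcna6, Kcnh2, Kcnv2, Kcnn2, Kcnn3, Kcnt2, Kcnma1 and Kcnmb1, and Kcna4 was among the lower. The median log2 fold change, Treg minus control, was 0.14 over the 55 members and −0.02 over all genes. With 1 library left out the members' median lay between −0.029 (without Treg replicate 2) and 0.23. Of the members, 56.4% of members had a fold change above 0 against 47.9% of all genes. Members were tested only if they had enough counts in at least as many libraries as a group holds, so these counts describe the measurable members and not the family. Kcnma1 and Kcnv2, among the 14, had few counts in control (0 to 15 and 4 to 28). Both reached enough libraries to be tested only with the Treg group, where they were higher, so their place among the 14 depends partly on the filter. Kcnv2 was also among the 11. With no filter, over 85 members, 16 were wholly higher and 6 wholly lower, and the share over all genes was not computed. The members' median log2 fold change was then −0.0013, against −0.004 over all genes. DESeq2 called 4 members (3.76% of all genes), namely Kcnj3, Kcnv2, Kcnn2 and Kcnj5, and limma-voom called 0. Without control replicate 3 edgeR called Kcnj3 and Kcnv2 (adjusted p = 0.0201 and 0.0335, with 1.28% of all genes called), and the same pair with Treg replicate 3 also left out (adjusted p = 0.0271 and 0.0474, with 0.656% called). With no filter on low counts edgeR called Kcnj3 alone (adjusted p = 0.0342, with 0.112% called).

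**Figure D1:**
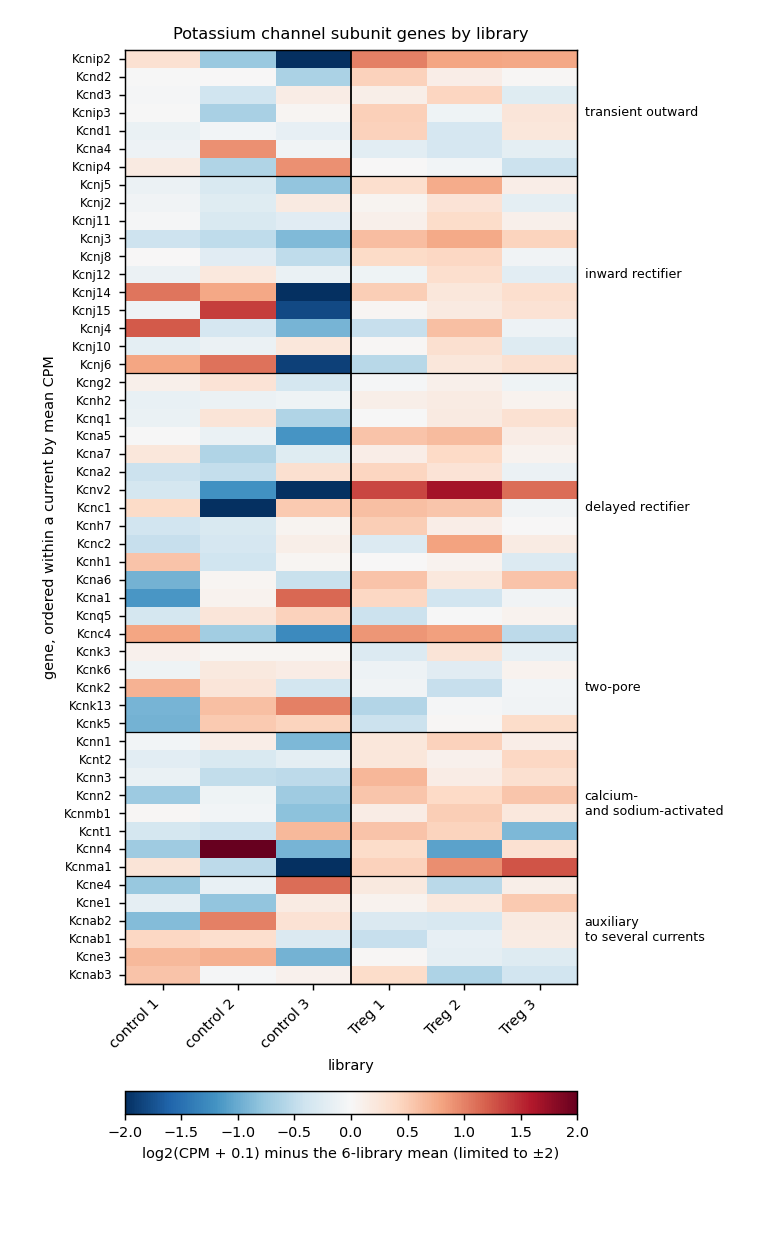
Colour gives log2(CPM + 0.1) of each of 52 tested genes (rows, grouped by current) minus its mean over the 6 libraries (columns). Kcnip2, Kcnj6, Kcnj14, Kcnj15, Kcnma1 and Kcnv2 are dark blue in control replicate 3, and Kcnj3, Kcnv2 and Kcnn2 are red in all 3 Treg libraries.

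Of the 6 libraries, control replicate 3 stood apart in the largest number of members. In that library 8 of the 55 tested genes lay over 2-fold below every other library, where 4.96% of all genes did: Kcna5, Kcnc4, Kcnip2, Kcnj6, Kcnj14, Kcnj15, Kcnma1 and Kcnv2. None lay over 2-fold above, against 2.44% of all genes. Control replicate 2 had 3 members over 2-fold above the rest, Kcna4, Kcnj15 and Kcnn4 (0.306% of all genes), and 1 below, Kcnc1 (0.334% of all genes). Control replicate 1 had 1 below, Kcna1 (0.3% of all genes), and no Treg library had any. The median member stood at −0.06, −0.12 and −0.17 log2 units from its 6-library mean in control replicates 1, 2 and 3 and at 0.11, 0.18 and 0.07 in Treg replicates 1, 2 and 3.

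The acetylcholine-gated inward rectifier showed the smallest p of any channel. Its 2 cardiac subunits are Kcnj3 (Kir3.1, chr2:55435970-55598145) and Kcnj5 (Kir3.4, chr9:32314707-32344350), which form a mixed channel opened by G protein subunits released below muscarinic and adenosine receptors, and which is known mainly from atrium and sinus node. Kcnj3 stood at 16.6, 15.5 and 12.0 CPM in control replicates 1, 2 and 3 and at 34.0, 37.7 and 30.1 in Treg replicates 1, 2 and 3, the order used for all values below. The lowest Treg value was 30.1 against a highest control value of 16.6, so the groups were well separated. The means were 14.7 ± 2.41 and 33.9 ± 3.78 CPM (± SD, n = 3). The log2 fold change was 1.21 ± 0.17 (fold change ± SE, also below), or 2.31-fold, with edgeR's adjusted p = 0.087. Kcnj5 stood at 45.8, 39.9 and 28.5 CPM in control and 62.6, 82.9 and 54.1 in Treg, again without overlap, and its log2 fold change was 0.81 ± 0.22 (edgeR adjusted p = 0.199, DESeq2 adjusted p = 0.0451). Treg replicate 3, which also held the atrial transcripts, had the lowest Treg value of both genes. Without it the log2 fold changes of Kcnj3 and Kcnj5 were 1.29 and 0.94. Whether atrial tissue contributed to the values of either gene was not tested. Hcn4, the pacemaker channel gene listed as a conduction system marker, stood at 96, 124 and 57 counts in control and 199, 205 and 163 in Treg. All 6 tested conduction markers had a fold change above 0, against 47.9% of all genes, but only Hcn4 was higher in every Treg library. Cntn2 stood at 1.58, 1.42 and 2.42 CPM in control and 0.956, 1.73 and 4.05 in Treg. Shox2 stood at 0.842, 1.16 and 0.438 CPM in control and 0.758, 0.541 and 2.04 in Treg. The conduction markers summed to 25.8, 27.2 and 16.6 CPM in control and 31.8, 29.2 and 33.2 in Treg, and Isl1 was at 0 in every library. Their part in the Kcnj3 and Kcnj5 values was not tested. Exons of Kcnj3 overlap a long noncoding RNA on the opposite strand, Gm26794, which had 46 to 160 counts against 356 to 1045 for Kcnj3. The library kit keeps strand, but no source used here states whether counting did.

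The start regions of both genes are shown because the subunits work as a pair and were higher in the same libraries. They are the 300-base RefSeq windows around each gene's start on GRCm38.p6, read 5′ to 3′ on the gene's strand, with matches to the searched motifs in capitals. The window of Kcnj3 is chr2:55435720-55436019 (+ strand) and that of Kcnj5 is chr9:32344295-32344594 (− strand).
Kcnj3: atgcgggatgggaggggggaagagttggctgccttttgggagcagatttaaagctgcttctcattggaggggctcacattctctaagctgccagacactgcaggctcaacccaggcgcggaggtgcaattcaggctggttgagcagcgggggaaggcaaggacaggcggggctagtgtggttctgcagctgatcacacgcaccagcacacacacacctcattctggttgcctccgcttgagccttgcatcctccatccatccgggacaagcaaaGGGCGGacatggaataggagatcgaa
Kcnj5: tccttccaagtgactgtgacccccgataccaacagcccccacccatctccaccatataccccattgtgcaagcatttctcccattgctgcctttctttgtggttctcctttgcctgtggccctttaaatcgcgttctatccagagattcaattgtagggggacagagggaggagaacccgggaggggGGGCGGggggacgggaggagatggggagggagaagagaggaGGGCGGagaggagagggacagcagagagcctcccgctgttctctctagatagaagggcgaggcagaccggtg
Motifs searched on both strands were the TATA box (TATAAA, in 13.6% of all 32851 windows), GC box (GGGCGG, 35.7%), E-box (CACGTG, 7.15%), GATA motif (AGATAA, 11.2%), D-box (TTATGNAA, 3.38%), NFAT core (GGAAAA, 23.4%), MEF2 (3.19%) and CArG box (1.63%). Windows were available for 67 of the members (92 windows), of which 44 windows held the GC box. Kcnj3 held 1 GC box and Kcnj5 held 2, and no other searched motif was in either window. Such matches describe the letters only.

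For the ATP-sensitive channel 1 of the 2 pore genes was higher in every Treg library, and neither passed the threshold. Kcnj11, the Kir6.2 pore of cardiac muscle (chr7:46093953-46100764), stood at 28.8, 23.5 and 25.0 CPM in control and 31.2, 37.5 and 31.3 in Treg. The groups did not overlap, and the log2 fold change was 0.37 ± 0.14 (edgeR adjusted p = 0.269). Kcnj8, the Kir6.1 pore known from vascular smooth muscle and pericytes, stood at 18.8, 15.95 and 13.1 CPM in control and 24.4, 25.0 and 17.8 in Treg, and only Treg replicate 3 fell within the control range (log2 fold change 0.49 ± 0.19, edgeR adjusted p = 0.285). Abcc9, which encodes the sulphonylurea receptor SUR2 that both pores assemble with, stood at 182, 130.3 and 131 CPM in control and 284, 341 and 274 in Treg. The groups did not overlap, and the log2 fold change was 1.02 ± 0.18 (edgeR adjusted p = 0.113). Abcc8, the SUR1 gene (named after its values were seen), overlapped between the groups at 39.2, 28.6 and 22.0 CPM in control and 34.9, 40.9 and 37.0 in Treg. Smooth muscle and pericyte markers summed to 869, 804 and 705 CPM in control and 848, 861 and 777 in Treg, and these ranges overlap. Most of the sum was Rgs5, a pericyte gene, and single markers differed in direction. Myh11, the smooth muscle myosin, stood at 25.3, 20.1 and 18.4 CPM in control and 36.0, 34.7 and 31.9 in Treg, higher in every Treg library (log2 fold change 0.68 ± 0.15, edgeR adjusted p = 0.147). Cspg4, another pericyte gene, was lower in every Treg library, at 40.4, 45.4 and 47.2 CPM in control and 32.1, 27.7 and 35.7 in Treg (−0.48 ± 0.14, edgeR adjusted p = 0.209). Their part in the values of these channel genes was not tested.

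The classical inward rectifiers, which hold the resting potential, did not differ between the groups beyond the spread of the libraries. Kcnj2 (Kir2.1) stood at 33.2, 29.4 and 39.2 CPM in control and 36.1, 41.9 and 30.3 in Treg, with a log2 fold change of 0.09 ± 0.17 (edgeR adjusted p = 0.8). Kcnj12 (Kir2.2) stood at 14.1, 17.7 and 13.9 CPM in control and 14.4, 19.3 and 13.2 in Treg, with 0.04 ± 0.19 (edgeR adjusted p = 0.938). For both, the difference was smaller than its standard error and its sign turned when single libraries were left out. Kcnj4, the third Kir2 gene, was low at 3.19, 1.03 and 0.640 CPM in control and 0.923, 2.06 and 1.23 in Treg. Kcnj14 (Kir2.4) stood at 13.0, 10.6 and 0.741 CPM in control and 8.71, 7.18 and 7.79 in Treg, so that control replicate 3 lay far below the other 5 libraries. Kcnj15 varied more within the control group, at 4.46, 12.4 and 1.28 CPM, than within the Treg group, at 4.85, 5.34 and 5.78. Kcnj6 and Kcnj10, at means of 0.483 and 0.625 CPM over the 6 libraries, overlapped too (log2 fold changes −0.49 and 0.07). Over the current as a whole 11 of 15 genes were tested, with 7 fold changes above 0, 4 below, and a median of 0.07. Of these 4 (36.4%) were higher at an unadjusted p under 0.05, against 8.24% of all genes, and 0 lower, against 8.31%.

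**Figure D2:**
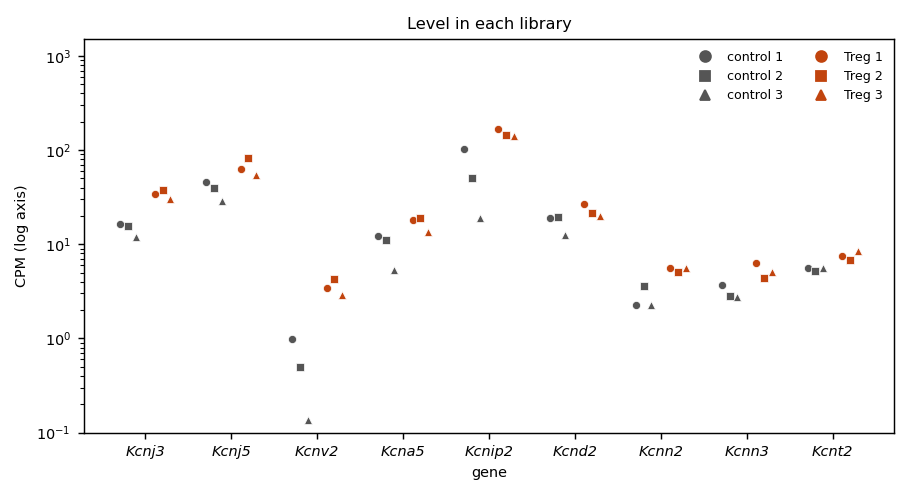
Each point is the CPM of 1 gene in 1 library on a log axis, control in grey and Treg in orange, with the marker shape giving the replicate. All 9 genes shown are higher in every Treg library than in any control library, and the Kcnip2 control values span 18.8 to 103 CPM.

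The transient outward current was led by Kcnip2, whose level differed widely among the control libraries. Kcnip2 (KChIP2, chr19:45791839-45816061), the calcium-binding partner that carries Kv4 channels to the membrane and without which the fast current is lost, stood at 103, 50.0 and 18.8 CPM in control and 167, 145 and 142 in Treg. Control replicate 1 lay nearest to the Treg libraries and control replicate 3 lowest, and no control value reached the Treg range. The log2 fold change was 1.41 ± 0.52 (edgeR adjusted p = 0.265). Without control replicate 3 it was 0.99, and without control replicate 1 it was 2.14 (edgeR adjusted p = 0.157 and 0.0854). The sum of the 5 neutrophil markers listed was also highest in control replicate 3. They summed to 6.597, 8.64 and 35.5 CPM in control and 18.0, 15.8 and 7.85 in Treg. S100a8 and S100a9 gave 11.9 and 13.1 CPM of the sum in control replicate 3. Csf3r was instead highest in Treg replicate 1, at 7.09 CPM against 5.72 in control replicate 3. The part of these markers in the Kcnip2 values was not tested.

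Kcnd2, the Kv4.2 pore, stood at 19.2, 19.5 and 12.5 CPM in control and 26.8, 21.3 and 19.8 in Treg. The groups did not overlap, but the nearest values, 19.5 and 19.8 CPM, were close (log2 fold change 0.41 ± 0.21, edgeR adjusted p = 0.37). Kcnd3, the Kv4.3 pore, overlapped at 16.4, 12.6 and 18.6 CPM in control and 18.1, 22.5 and 14.2 in Treg (0.20 ± 0.22, edgeR adjusted p = 0.645). Kcna4 (Kv1.4), which carries the slow transient outward current, pointed the other way. It stood at 1.51, 3.14 and 1.55 CPM in control and 1.39, 1.26 and 1.41 in Treg, lower in every Treg library, with a log2 fold change of −0.61 ± 0.34 (edgeR adjusted p = 0.396) that was −0.18 without control replicate 2. Kcnip3, a KChIP also known as the transcriptional repressor DREAM, overlapped at 1.75, 1.09 and 1.82 CPM in control and 2.51, 1.66 and 2.105 in Treg (0.43 ± 0.29, edgeR adjusted p = 0.471). Kcnd1 and Kcnip4 also overlapped, with log2 fold changes of 0.29 and −0.52, and Kcnip1, at 2 to 6 counts, was not tested. Per kilobase of exon, so that genes can be compared, the mean level over the 6 libraries was 29.98 CPM for Kcnip2, 3.85 for Kcnd2, 1.78 for Kcnd3, 0.354 for Kcna4 and 0.337 for Kcnd1. On this per-length scale Kcnip2 had the highest level of these 5 genes.

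The start regions of Kcnip2 and Kcnd2 are shown as those of a channel pore and the partner it needs, with the GC box in capitals, the only searched motif found in them. The Kcnip2 window is chr19:45816014-45816313 (− strand) and the Kcnd2 window is chr6:21215096-21215395 (+ strand).
Kcnip2: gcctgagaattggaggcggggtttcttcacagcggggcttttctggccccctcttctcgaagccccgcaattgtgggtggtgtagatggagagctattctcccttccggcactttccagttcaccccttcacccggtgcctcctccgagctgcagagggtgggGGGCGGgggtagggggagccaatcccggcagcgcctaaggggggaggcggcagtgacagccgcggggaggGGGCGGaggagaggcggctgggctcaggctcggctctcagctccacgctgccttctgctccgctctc
Kcnd2: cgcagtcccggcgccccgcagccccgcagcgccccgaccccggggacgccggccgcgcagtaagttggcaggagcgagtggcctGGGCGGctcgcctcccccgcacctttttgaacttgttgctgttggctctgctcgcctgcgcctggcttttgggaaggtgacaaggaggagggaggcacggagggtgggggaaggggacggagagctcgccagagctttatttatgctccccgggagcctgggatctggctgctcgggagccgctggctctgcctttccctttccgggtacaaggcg
Their GC content was 67.0% and 68.7%, above the 57.7% of Kcnj3 and 58.3% of Kcnj5, where the median was 58.0% over the windows of potassium channel genes and 52.7% over all windows. Kcnip2 held 2 GC boxes and Kcnd2 held 1.

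Among the delayed rectifiers the largest fold change was that of a silent subunit gene. Kcnv2 (Kv8.2, chr19:27322588-27337179), which forms no channel alone but alters the Kv channels it joins, stood at 0.982, 0.496 and 0.135 CPM in control and 3.40, 4.26 and 2.89 in Treg. Every Treg value was well above every control value, and the log2 fold change was 2.70 ± 0.55, or 6.51-fold (edgeR adjusted p = 0.134). In counts this was 28, 15 and 4 in control and 103, 118 and 92 in Treg. The control values thus rest on few reads, and the gene passed the count filter only with its Treg libraries. Without control replicate 1 the log2 fold change was 3.46. Kcng2 (Kv6.2), another silent subunit gene, overlapped at 78.7, 89.0 and 57.7 CPM in control and 72.4, 79.2 and 69.2 in Treg (−0.03 ± 0.17, edgeR adjusted p = 0.941).

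Kcna5 (Kv1.5, chr6:126532551-126535412), the ultrarapid delayed rectifier pore, stood at 12.1, 11.1 and 5.32 CPM in control and 18.1, 19.0 and 13.5 in Treg. The groups did not overlap, and the log2 fold change of 0.83 ± 0.31 (edgeR adjusted p = 0.269) was 0.54 without control replicate 3. Kcna6, a Kv1 pore best known from nerve, stood at 0.351, 0.794 and 0.539 CPM in control and 1.19, 0.902 and 1.19 in Treg, also without overlap (0.96 ± 0.34, edgeR adjusted p = 0.259). The nerve and Schwann cell markers listed summed to 3.82, 5.53 and 8.01 CPM in control and 9.04, 8.26 and 7.44 in Treg, with 3 of 7 tested. Their part in the Kcna6 values was not tested.

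Kcnh2 (ERG, the rapid delayed rectifier) varied little within the groups. It stood at 45.8, 46.7 and 47.6 CPM in control and 54.5, 56.5 and 53.1 in Treg, higher in every Treg library by a small margin (log2 fold change 0.23 ± 0.10, edgeR adjusted p = 0.322). Kcnq1, the slow delayed rectifier pore, overlapped at 29.3, 38.4 and 21.1 CPM in control and 32.1, 36.4 and 39.6 in Treg (0.28 ± 0.22, edgeR adjusted p = 0.521), and its exons overlap those of the antisense transcript Kcnq1ot1, at 150 to 217 counts. Per kilobase, the mean over the 6 libraries was 24.9 CPM for Kcng2, 10.5 for Kcnh2, 8.02 for Kcnq1, 4.61 for Kcna5 and 4.09 for Kcna7. A further 9 tested genes overlapped between the groups. They were the Kv1 pores Kcna1, Kcna2 and Kcna7, the fast Kv3 pores Kcnc1, Kcnc2 and Kcnc4 (known from fast-firing neurons), the ether-à-go-go relatives Kcnh1 and Kcnh7, and the M-current family member Kcnq5. Their log2 fold changes ran from −0.33 (Kcna1) to 0.88 (Kcnc4), with edgeR adjusted p between 0.405 and 0.806. Kcnc4 had only 13, 3 and 1 counts in control and 15, 13 and 4 in Treg. Exons of Kcnh7 overlap the protein-coding gene Gca on the opposite strand, which had 154 to 400 counts against 32 to 65 for Kcnh7. Those of Kcng2 overlap a transcript on the opposite strand, D330025C20Rik, with 219 to 485 counts. Of the 36 genes of the current, 18 were tested, with 11 fold changes above 0 and 7 below and a median of 0.33. At an unadjusted p under 0.05 there were 3 higher (16.7%, against 8.24% of all genes) and 1 lower (5.56%, against 8.31%).

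The two-pore channels, which carry background leak currents, showed no difference beyond the spread of the libraries. Kcnk3 (TASK-1, chr5:30588170-30625271), an acid-sensitive leak channel, had the highest level per kilobase of all members, at 43.0 CPM. It stood at 181, 174 and 173 CPM in control and 141, 203 and 153 in Treg, so that Treg replicate 2 lay above and the other Treg libraries below a narrow control range (log2 fold change −0.09 ± 0.16, edgeR adjusted p = 0.798). Kcnk2 (TREK-1), which opens on stretch, stood at 6.74, 4.898 and 3.16 CPM in control and 3.89, 2.96 and 3.96 in Treg (−0.45 ± 0.30, edgeR adjusted p = 0.459). Kcnk6 (TWIK-2) stood at 6.25, 7.61 and 7.37 CPM in control and 6.23, 5.70 and 7.04 in Treg (−0.16 ± 0.17), and Kcnk13 (THIK-1), known from microglia and macrophages, at 0.702, 2.22 and 2.96 CPM in control and 0.923, 1.41 and 1.35 in Treg (−0.68 ± 0.49). Kcnk5 (TASK-2) had −0.15 ± 0.49. The edgeR adjusted p of Kcnk6 and Kcnk13 was 0.633 and 0.5. All 5 tested genes of the 14 had fold changes below 0, with a median of −0.16. None passed an unadjusted p of 0.05, and all 5 overlapped between the groups. Exons of Kcnk3 overlap Gm9899 on the opposite strand (650 to 1240 counts, against 4270 to 5625 for Kcnk3). Kcnk7 was not tested: it had 77 counts in control replicate 3 and 1 to 4 in each of the other libraries (named after its values were seen).

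**Figure D3:**
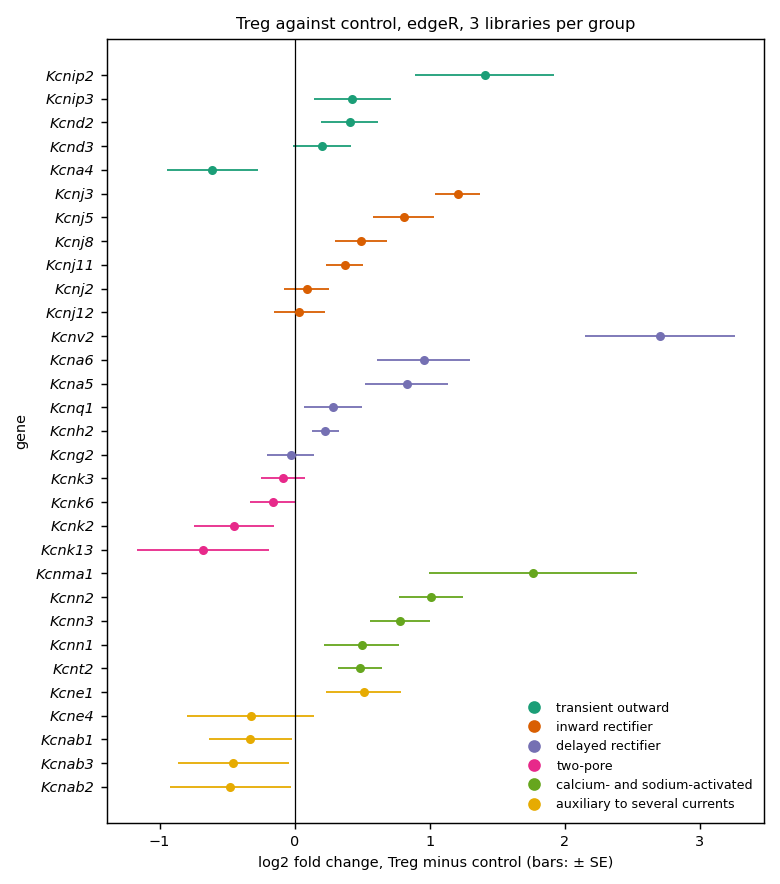
Points are log2 fold changes, Treg minus control, of 31 named genes with bars of ± SE, coloured by current. Kcnv2 lies farthest to the right at 2.70 and the 4 two-pore genes named lie left of 0.

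Of the calcium- and sodium-activated channel genes, 12 in all, 8 were tested, with 7 fold changes above 0 and 1 below, a median of 0.53 (−0.02 over all genes). At an unadjusted p under 0.05 there were 3 higher (37.5%, against 8.24% of all genes) and 0 lower. The small-conductance channels SK1 to SK3, encoded by Kcnn1, Kcnn2 and Kcnn3, open on a rise in cell calcium and shape late repolarization, mainly in atrium. Kcnn2 stood at 2.25, 3.57 and 2.29 CPM in control and 5.64, 5.05 and 5.65 in Treg. The groups were apart, with a log2 fold change of 1.01 ± 0.23, or 2.01-fold (edgeR adjusted p = 0.159, DESeq2 adjusted p = 0.012). Kcnn3 (chr3:89520164-89675132) stood at 3.65, 2.81 and 2.76 CPM in control and 6.36, 4.44 and 5.03 in Treg, also without overlap (0.78 ± 0.22, edgeR adjusted p = 0.206). Kcnn1 stood at 6.32, 7.21 and 3.47 CPM in control and 7.72, 9.09 and 7.19 in Treg and overlapped in 1 pair of libraries (0.50 ± 0.28, edgeR adjusted p = 0.401). Without Treg replicate 3, the library that held atrial transcripts, the log2 fold changes were 0.98 for Kcnn2 and 0.81 for Kcnn3. Whether atrial tissue contributed to these values was not tested.

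Kcnt2, a sodium-activated channel also known as Slick (chr1:140246158-140612067), stood at 5.54, 5.16 and 5.59 CPM in control and 7.49, 6.78 and 8.54 in Treg. Its control values lay close together and below every Treg value (0.49 ± 0.16, edgeR adjusted p = 0.241). Kcnma1, the large-conductance BK pore of smooth muscle, was low at 15, 8 and 0 counts in control and 19, 25 and 37 in Treg (1.76 ± 0.77, edgeR adjusted p = 0.311). Its log2 fold change was 2.72 without control replicate 1 and 0.94 without control replicate 3 and Treg replicate 3. Its smooth muscle partner Kcnmb1 stood at 1.23, 1.16 and 0.640 CPM in control and 1.35, 1.73 and 1.41 in Treg, higher in every Treg library as well. The smooth muscle gene Myh11, given above, was also higher in every Treg library. Of the same list, Acta2, Tagln and Cnn1 overlapped between the groups (log2 fold changes −0.0008, −0.15 and −1.49). Over the 8 smooth muscle and pericyte markers, 3 fold changes were above 0 and 5 below. The part of these markers in the Kcnma1 and Kcnmb1 values was not tested. Kcnn4, the intermediate-conductance channel of lymphocytes and macrophages, had the one fold change below 0 (−0.92 ± 0.96, edgeR adjusted p = 0.634) and was highest in control replicate 2, at 1.99 CPM against 0.144 to 0.561 in the other 5 libraries.

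None of the auxiliary subunit genes separated the groups: 5 of the 6 tested fold changes were below 0, with a median of −0.39, and 0 passed an unadjusted p of 0.05. Kcne1 (minK), the partner of Kcnq1 in the slow delayed rectifier, was the exception, at 3.68, 2.38 and 4.68 CPM in control and 4.39, 4.87 and 6.06 in Treg (0.51 ± 0.28, edgeR adjusted p = 0.39). Kcne4, which inhibits several Kv channels, stood at 4.84, 7.45 and 18.0 CPM in control and 9.50, 5.66 and 8.98 in Treg, with control replicate 3 far above the rest. Its log2 fold change of −0.33 ± 0.47 (edgeR adjusted p = 0.736) was 0.39 without that library. The 3 genes of cytosolic beta subunits of Kv1 channels overlapped between the groups. Kcnab1 stood at 1.65, 1.56 and 0.976 CPM in control and 0.857, 1.08 and 1.38 in Treg (−0.33 ± 0.31), Kcnab2 at 1.75, 6.69 and 4.04 CPM in control and 2.67, 2.60 and 3.71 in Treg (−0.48 ± 0.45), and Kcnab3 at 0.702, 0.430 and 0.471 CPM in control and 0.594, 0.252 and 0.314 in Treg (−0.45 ± 0.41). Their edgeR adjusted p lay between 0.582 and 0.595. Kcne3 had a log2 fold change of −0.52 ± 0.50, and Kcne2 had 0 to 4 counts and was not tested.

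Summed over all genes of a current, and without allowance for gene length, the transient outward genes reached 144, 88.4 and 55.9 CPM in control and 219, 193 and 182 in Treg, of which Kcnip2 alone gave 103, 50.0 and 18.8 and 167, 145 and 142 CPM. The inward rectifier genes summed to 179.5, 167 and 135 CPM in control and 218, 260.2 and 193 in Treg, and the calcium- and sodium-activated genes to 20.2, 22.7 and 16.2 CPM in control and 30.9, 29.1 and 29.9 in Treg. In these 3 sums every Treg library lay above every control library. Without Kcnj3 and Kcnj5 the inward rectifier sums were 117, 112 and 94.8 CPM in control and 122, 139.6 and 108 in Treg and overlapped. Without Kcnip2 the transient outward sums were 41.1, 38.4 and 37.1 CPM in control and 51.9, 48.7 and 39.9 in Treg, and these too overlapped. Without Kcnn2, Kcnn3 and Kcnt2 the calcium- and sodium-activated sums were 8.74, 11.2 and 5.55 CPM in control and 11.4, 12.8 and 10.7 in Treg, again with overlap. The delayed rectifier sums, 265, 271 and 246 CPM in control and 266, 285 and 261 in Treg, and the two-pore sums, 195, 190.1 and 191 CPM in control and 153, 214 and 166 in Treg, overlapped. So did those of the auxiliary genes, at 13.6, 19.5 and 28.5 CPM in control and 18.6, 14.9 and 20.9 in Treg.

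**Figure D4:**
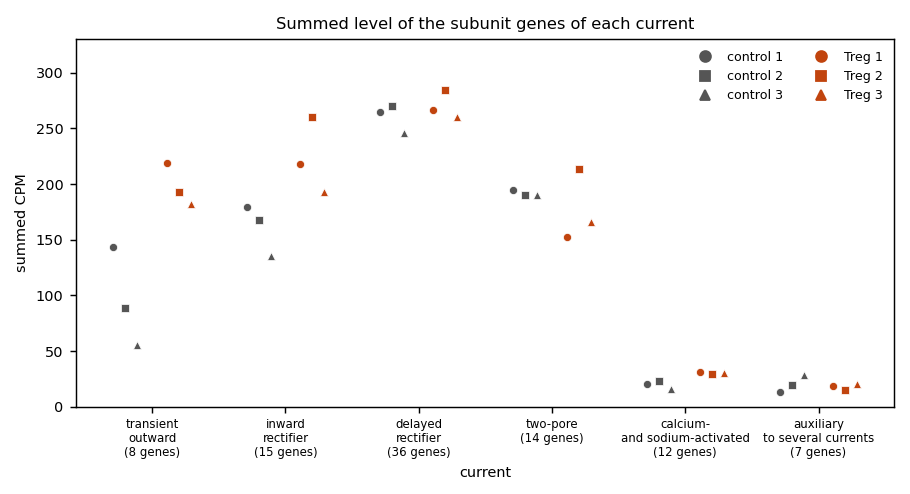
Each point is the summed CPM of all genes of 1 current in 1 library, control in grey and Treg in orange, with the marker shape giving the replicate. The transient outward, inward rectifier, and calcium- and sodium-activated sums are higher in all 3 Treg libraries, and the other 3 currents overlap.

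The 37 genes that were not tested had mean levels of at most 0.500 CPM, and 7 of them had 0 counts in all 6 libraries: Kcna10, Kcng3, Kcnh5, Kcnk9, Kcnk16, Kcnmb2 and Kcnv1. They included 18 delayed rectifier genes, 9 two-pore genes, 4 inward rectifier genes, 4 calcium- and sodium-activated genes, 1 transient outward gene and 1 auxiliary gene. Among them Kcnq3, named after its values were seen, had 13, 12 and 0 counts in control and 2, 2 and 6 in Treg.

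Genes that work with these channels but are not Kcn genes were taken as a list of 23 channel partners and 7 sodium-potassium pump subunits, of which 19 and 7 were tested. By edgeR 0 of either passed the adjusted threshold. At an unadjusted p under 0.05 there were 3 partners higher and 2 lower, and 2 pump genes higher and 1 lower, where 8.24% of all genes were higher and 8.31% lower. The higher ones included Abcc9, Lrrc55 and Akap5 and, named after its values were seen, the pump gene Atp1b2. The lower ones included Atp1b1 and, named likewise, Cav3, which encodes the muscle caveolin. The partner list had 12 fold changes above 0 and 7 below, with a median of 0.18, and the pump list 3 above and 4 below, with a median of −0.32. Besides Abcc9, the smallest p values belonged to Lrrc55, a BK channel gamma subunit, at 0.351, 0.232 and 0.168 CPM in control and 1.55, 0.577 and 1.38 in Treg (log2 fold change 2.22 ± 0.48, edgeR adjusted p = 0.139). Atp1b1, the main pump beta subunit, was lower in every Treg library, at 397, 434 and 460.0 CPM in control and 209, 291 and 273 in Treg (−0.74 ± 0.17, edgeR adjusted p = 0.156). Akap5, an anchoring protein that brings kinases and calcineurin to channels, stood at 1.09, 0.960 and 0.842 CPM in control and 3.07, 1.55 and 2.61 in Treg (1.32 ± 0.31, edgeR adjusted p = 0.16). Dpp6, a further transmembrane partner of Kv4, was near 0, at 0.0351, 0.132 and 0.0673 CPM in control and 0.132, 0.0721 and 0.157 in Treg, and its relative Dpp10 had 0 counts in all libraries.

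**Figure D5:**
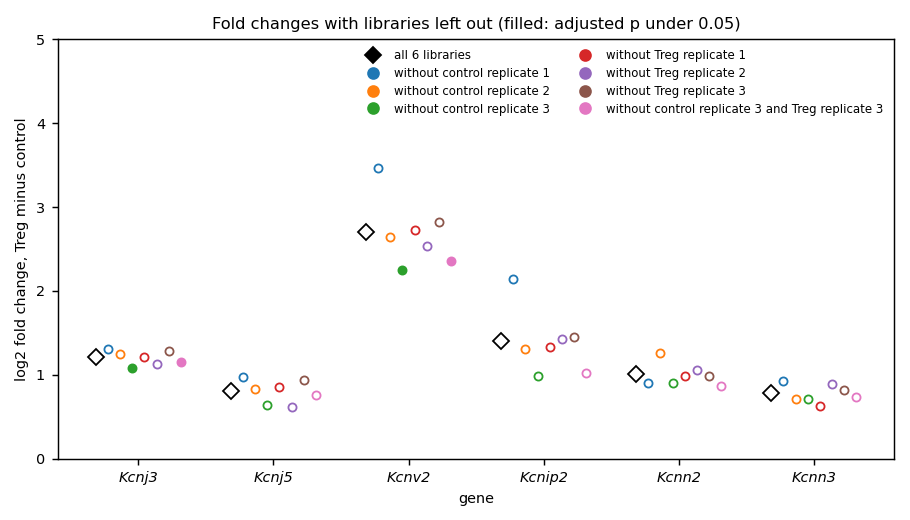
Points are log2 fold changes, Treg minus control, from all 6 libraries (diamonds) and with libraries left out (circles), filled where edgeR's adjusted p was under 0.05. All values are above 0, and filled points occur for Kcnj3 and Kcnv2 where control replicate 3 is left out.

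Leaving out single libraries moved some members more than others. Without control replicate 3 the log2 fold changes of Kcnip2, Kcna5 and Kcnd2 were 0.99, 0.54 and 0.23, while those of Kcnj3, Kcnn2, Kcnn3 and Kcnh2 were 1.08, 0.90, 0.71 and 0.24.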

How the data were processed

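RNA of 6 left ventricle samples, 3 per group, was sequenced as paired 101 bp reads from stranded mRNA libraries, per the labels' protocols. The submitters' processing notes name GRCm38, HISAT2 2.1.0, featureCounts 2.0.6, Trimmomatic 0.39 and Cuffdiff 2.2.1; roles and counting options are not stated there. The authors deposited estimated counts per Ensembl gene ID, not normalized. In each library 46.5% to 50.0% of nonzero values were fractional, for a reason the sources used here do not give, so reads shared between genes could be split. Another 6 columns of the table belong to none of the listed samples and were not used. GENCODE M21 named 47224 of 47729 IDs.

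Counts were rounded to whole numbers and analysed with edgeR 4.0.16 in R 4.3.3: filterByExpr (17343 genes), TMM scaling, robust quasi-likelihood F tests without covariates, two-sided, and Benjamini-Hochberg adjustment at 0.05 over all genes. The test code was checked on simulated data. A standard error is the log2 fold change over the root of its F statistic. Every pair of libraries differed by more than sampling noise (chi-square over its degrees of freedom 19.3 to 150.0). Levels per kilobase use the union of annotated exons. Alternatives were DESeq2 1.42.0, limma-voom (limma 3.58.1), scaling by RLE or upper quartile, testing without a filter or only genes averaging at least 1 CPM, a replicate block, a threshold of 0.1, and leaving out libraries. Values in every library were given for a fixed core of ventricular channel genes, for up to 4 genes with the smallest p and for the 2 with the highest mean in each current (32 genes); of the partner and pump genes, the 4 with the smallest p were named. Results of some of these genes are not reported here, although the counts over all members include them. The members, core and lists were chosen with earlier results of these data known.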

Additional observations from a re-analysis of the deposited data

How the results depend on the processing

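Over all genes edgeR called 0 with all 6 libraries (2871 at an unadjusted p under 0.05), as did limma-voom (2806). The count was 652 with DESeq2, 32 with no filter, 114 without control replicate 3 and Treg replicate 3, 56 at an adjusted p of 0.1, and 0 to 226 with 1 library left out, the 226 arising without control replicate 3. Potassium channel genes called numbered 0, against 4, 1, 2 and 1 in the first 4 of these settings and 0 to 2 with 1 library left out. Members wholly higher in Treg numbered 14, with 16 to 19 with 1 library left out and 26 without control replicate 3 and Treg replicate 3. Those wholly lower numbered 2, with 6 with no filter, 9 without that pair and 4 to 8 with 1 library left out. Smaller groups separate more easily. With all 6 libraries 13.7% of all genes were wholly higher and 11.7% wholly lower. That share was not computed for the other settings, so their counts cannot be set against it. The median fold change of members was 0.14, and it was 0.25 with limma-voom, −0.0013 with no filter, 0.29 at a mean of at least 1 CPM, 0.23 with the replicate block, 0.30 without the pair and −0.029 (without Treg replicate 2) to 0.23 with 1 library left out.

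Of 445 values for the 32 named genes under the alternatives, 12 turned sign, in 6 genes with fold changes near 0 or set by 1 library. With 1 library left out the values ranged as follows. Kcnab2 lay between −0.83 and 0.051 (without control replicate 2). Kcne4 lay between −0.65 and 0.39 (without control replicate 3), with 0.29 without the pair. Kcnk3 lay between −0.26 and 0.018 (without Treg replicate 1). Kcng2 lay between −0.19 and 0.10, above 0 without control replicate 1 (0.012), Treg replicate 3 (0.015) or control replicate 2. Kcnj12 lay between −0.15 and 0.15, below 0 without Treg replicate 2, control replicate 1 (−0.0078) or control replicate 3 (−0.028). Kcnj2 lay between −0.029 and 0.21, below 0 without control replicate 2 (−0.0037) or Treg replicate 2, and had 0.31 without the pair. The cause was not tested. Same-numbered libraries did not deviate together (r = −0.14, −0.24 and 0.04), so the numbers were not taken as pairs, and the replicate block called 0 genes and 0 members.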
